A study of Mus musculus with 4 samples.

Results

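The 48 genes described here encode assembly factors of the 60S ribosomal subunit, the large subunit of the cytosolic ribosome. They were chosen by gene symbol from knowledge of the assembly pathway, with earlier results of these data known. All 48 were found among the 24411 genes listed. Late two-cell mouse embryos of the ICR strain had been produced by in vitro fertilization and cultured in KSOM, an embryo culture medium to which serum albumin was added. Embryos of the treated group received 6 µM 10074-G5, a small molecule that binds MYC and hinders its pairing with MAX, and embryos of the control group received DMSO, the solvent of the compound. Each group had 2 libraries, each library pooled 10 embryos, and all embryos were collected at 36 hpi (hours post-insemination). The study's text places the start of the treatment at 6 hpi, whereas the sample labels place it at 3 hpi. The control and treated embryos shared strain, method of fertilization, medium and collection time, and no genetic alteration is given for either group. The comparison addresses which transcripts differ when embryos receive 10074-G5 from the one-cell stage. The activity of MYC itself was not measured in these libraries.

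A ribosome is built in the nucleolus, where the precursor of the large ribosomal RNAs is folded, modified and cut while ribosomal proteins join it. The assembly factors bind the growing particle for a time, and helicases, GTPases and AAA ATPases drive the steps that release them before the particle is exported and finished in the cytoplasm. Genes for these factors are well-known targets of MYC in proliferating cells, and the early embryo switches from ribosomes stored in the egg to ribosomes of its own.

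MYC pairs with MAX to bind the E-box, whose preferred form is CACGTG, so this motif was searched in the promoter windows of the factors. A window ran from 250 bases before to 50 bases after an annotated transcription start, and because CACGTG is its own reverse complement a single search covers both strands. RefSeq windows (build GRCm38.p6) were found for 41 of the 48 genes, 48 windows in all. The motif was present in 10 of these windows (20.8%), which belonged to 9 genes, against 7.15% of all 32851 windows and 9.71% of the 12995 windows of genes tested here. The stretches below show the motif, in capitals, for the 6 of these genes with the smallest unadjusted edgeR p. They are written 5′ to 3′ along the gene's own strand, and each is 30 bases long except that of Nop2, whose motif lies outside the annotated transcripts.
Rpf2, chr10:40246988-40247017, minus strand: aagtaatcggtaCACGTGcattcgctaagg
Mybbp1a, chr11:72441347-72441376, plus strand: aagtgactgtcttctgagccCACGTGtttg
Sdad1, chr5:92309986-92310015, minus strand: agcggcgtgtccCACGTGccgtttccggtt
Mdn1, chr4:32657139-32657168, plus strand: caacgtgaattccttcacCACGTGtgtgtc
Nle1, chr11:82908355-82908384, minus strand: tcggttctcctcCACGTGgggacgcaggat
Nop2, chr6:125131783-125131868, plus strand: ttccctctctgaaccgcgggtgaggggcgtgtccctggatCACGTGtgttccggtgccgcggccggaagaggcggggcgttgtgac

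The first base of the motif lay 60 bases before the start in Nop2 and at base 22, 24, 39 and 41 of the transcript in Sdad1, Nle1, Mdn1 and Mybbp1a. In Rpf2, which has 2 annotated starts, the same genomic site lay 26 bases before one of them and at base 35 from the other. GENCODE places the motif in an untranslated stretch of the first 5 genes printed. The remaining carriers were Nmd3 and Pelp1, with the motif 114 and 229 bases before the start, and Pes1, with the motif at base 3 of the transcript. The 9 genes with the motif and the 32 with a window that lacked it had close median log2 fold changes (log2FC, inhibitor-treated against control), -1.19 and -1.16. Unadjusted edgeR p was under 0.05 in 5 of the 9 and in 18 of the 32. A match is a description of the sequence and does not show binding, and a window without the letters says nothing about MYC at that gene.

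The libraries held 18206584 to 20718690 expected counts (RSEM's estimate of the fragments of a gene). DMSO replicate 1 stood apart from the other 3 libraries. Markers of the two-cell stage summed to 735.3 FPKM in it and to 2488, 2761 and 3222 FPKM in DMSO replicate 2 and inhibitor-treated replicates 1 and 2 (FPKM is a fragment count scaled to transcript length and library size, a level per length). Of 8 oocyte markers 7 were higher in both treated libraries than in both control libraries, as were 3920 of the 13549 genes tested. Zp3 had the opposite order. The 8 oocyte markers summed to 878.6, 2109, 4430 and 3632 FPKM in the same order of libraries. Oosp1 alone gave 555, 1572, 3691 and 2917 FPKM of these sums. All 5 markers of the two-cell stage were present in every library. Of other cells, cumulus markers summed to 21.5, 12.9, 9.31 and 5.96 FPKM, mostly from Amhr2 and Tnfaip6, with Ptx3 and Foxl2 at 0, and sperm markers summed to 2.7, 4.44, 16.1 and 9.43 FPKM, with Prm1 and Tnp2 at 0. Trophectoderm markers summed to 2.19, 9.93, 10.3 and 11.1 FPKM. The part of these differences in the results below was not tested, and each main result is also given without DMSO replicate 1.

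All 48 factors were detected in every library, and the lowest count was 55. Mean FPKM over the 4 libraries ran from 2.79 for Mdn1 to 928.9 for Rsl1d1 with a median of 25.2, 19 factors were at 100 FPKM or more and 12 were under 10 FPKM. The median factor stood at percentile 76.2 of the 13549 genes tested. The sum over the 48 factors was 10340 FPKM in DMSO replicate 1, 7225 FPKM in DMSO replicate 2, 4434 FPKM in inhibitor-treated replicate 1 and 5353 FPKM in inhibitor-treated replicate 2. Both treated sums were therefore below both control sums. As shares of all counts these were 1.77%, 1.22%, 0.755% and 0.904%. The values are relative to all polyadenylated RNA of 10 pooled embryos, so less of these transcripts in every embryo and a larger share of embryos with little of them cannot be told apart.

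**Figure D1:**
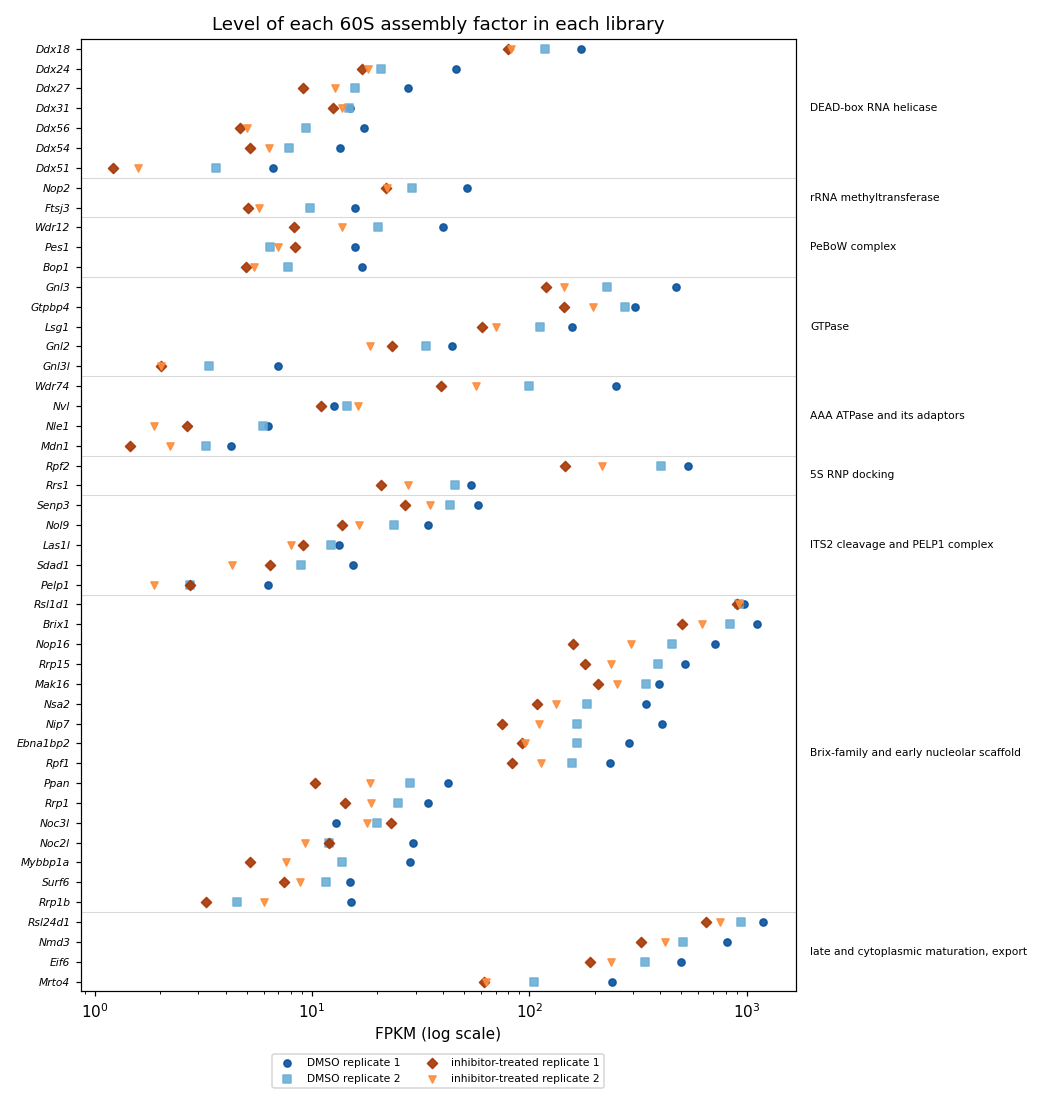
Each row is 1 of the 48 assembly factors, grouped by role and ordered by mean level, and each point is the FPKM (log axis) of 1 library, blue for the 2 control and orange to brown for the 2 10074-G5-treated libraries. The treated points lie to the left of the control points for most factors, DMSO replicate 1 is usually farthest to the right, and the treated and control points of Rsl1d1, Ddx31, Nvl and Noc3l lie close together or mixed.

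In the treated embryos 6576 of the 13549 genes tested were lower. Of the 48 factors, 47 were lower and 1, Noc3l, was higher. The median log2FC was -1.16, a 2.24-fold lower level, against 0.04 over all genes tested. By size, 35 factors were lower by over 1 on the log2 scale, 9 by 0.5 to 1, and 4 were within 0.5 of no difference. In 44 factors (91.7%) both treated libraries lay below both control libraries in CPM (counts scaled to library size with TMM factors), against 28.3% of all genes tested.

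edgeR's quasi-likelihood test called none of the 48 factors at |log2FC| > 1 and an adjusted p under 0.05 over all genes, and it called no other gene either (0.0% of genes in each direction). The adjusted p of the factors in that test ran from 0.3331 to 0.893. At an unadjusted p under 0.05, edgeR gave 29 factors as lower (60.4%, against 10.1% of all genes) and 0 as higher. DESeq2 with the transcript lengths as offsets was run as an alternative with the same thresholds. It called 12 factors down-regulated out of the 47 it gave an adjusted p (25.5%, against 5.75% of genes) and none up-regulated. The 12 were Ddx51, Ddx56, Wdr12, Gnl3, Wdr74, Rpf2, Ebna1bp2, Rrp15, Nop16, Nip7, Mybbp1a and Mrto4, and 2 further DESeq2 fits each also called these 12. Over the fits with all 4 libraries the adjusted p of these 12 ranged from 0.00146 (Wdr74, edgeR without a filter on low counts) to 0.411 (edgeR with library totals). edgeR without a filter on low counts called 11 of the 48 factors, against 2.63% of genes. An exact permutation test of 2 against 2 libraries cannot go under 0.33.

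The control libraries differed from each other. In CPM, DMSO replicate 1 was above DMSO replicate 2 in 47 of the 48 factors, against 6487 of the 13549 genes tested. It was above by over 1.5 times in 39 factors and by over 2 times in 21. The treated libraries were over 1.5 times apart in 7 factors. In 44 factors the order was DMSO replicate 1, then DMSO replicate 2, then both treated libraries, an order shown by 24% of all genes. Without DMSO replicate 1 the median log2FC was -0.67, a 1.59-fold lower level, and 45 factors were lower. edgeR then gave an unadjusted p under 0.05 to 25 lower factors (52.1%, against 7.36% of genes), with 0 called and a smallest adjusted p of 0.162. Without DMSO replicate 2 the median log2FC was -1.56 and edgeR called 42 factors down-regulated, against 14.1% of genes. The size of the difference and the number of calls thus depended on which control library was used, whereas 45 factors were lower whichever control library was left out.

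**Figure D2:**
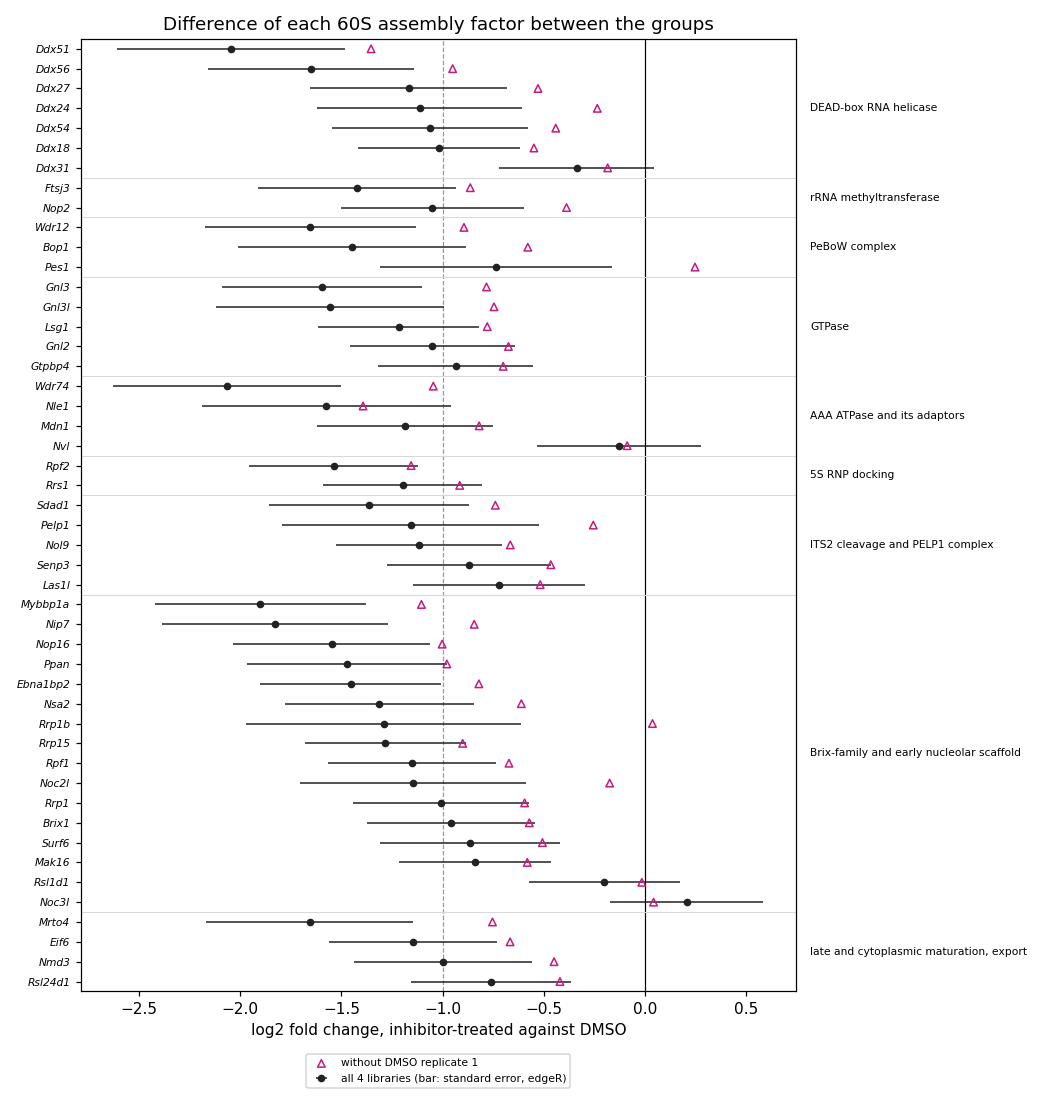
Each row is 1 assembly factor, and the x axis gives the log2FC of 10074-G5-treated against control embryos, with black points and bars for edgeR's estimate and its standard error from all 4 libraries and open triangles for the estimate without DMSO replicate 1. Most black points lie beyond -1 (dashed line), and the triangles have a median of -0.67.

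Of the 7 DEAD-box RNA helicases, ATP-dependent enzymes that remodel the RNA of the early particle, all were lower without overlap between the groups, 4 with an unadjusted edgeR p under 0.05 and 2 called by DESeq2. Over all genes, 28.3% were lower without overlap, 10.1% were lower at that edgeR p and 5.75% were called down-regulated by DESeq2. Ddx51 (chr5:110653432-110663019), the helicase linked to the release of the U8 snoRNA, had 6.64 and 3.60 FPKM in the control libraries and 1.22 and 1.59 FPKM in the treated ones. Its log2FC was -2.05 ± 0.56 (SE, edgeR), the lowest of the helicases, with a DESeq2 adjusted p of 0.0255, and it was -1.35 without DMSO replicate 1. Ddx56 (chr11:6257545-6269786) had 17.4 and 9.35 FPKM in the controls and 4.66 and 5.02 FPKM after treatment, and thus stayed below both controls in both treated libraries. Its log2FC was -1.65 ± 0.51 (DESeq2 adjusted p = 0.0436) and was -0.95 without DMSO replicate 1.

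Ddx31 differed least among the helicases. It had 15.02 and 14.87 FPKM in the controls and 12.4 and 13.7 FPKM in the treated libraries, a log2FC of -0.34 ± 0.38. Ddx18, the most abundant helicase of the list, had 173 and 119 FPKM in the controls and 80.0 and 82.2 FPKM after treatment. The treated replicates of Ddx18 were close together and below both controls. Ddx24, Ddx27 and Ddx54 had log2FC of -1.11, -1.17 and -1.06, which were -0.24, -0.53 and -0.44 without DMSO replicate 1.

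Nop2 and Ftsj3 methylate the RNA of the large subunit, Nop2 on a cytosine and Ftsj3 on ribose. Nop2 had 51.6 and 28.7 FPKM in the controls and 21.8 and 22.1 FPKM in the treated libraries, a log2FC of -1.05 ± 0.45 that was -0.39 without DMSO replicate 1. Ftsj3 had 15.8 and 9.80 FPKM in the controls and 5.05 and 5.72 FPKM after treatment, a log2FC of -1.42 ± 0.49 that was -0.86 without that library. Both were lower without overlap between the groups and neither was called by DESeq2. Ftsj3 overlaps Ddx42 in the annotation.

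Pes1, Bop1 and Wdr12 form the PeBoW complex, which is needed to process the internal spacer ITS2. The 3 subunits did not move alike. Wdr12 (chr1:60071361-60098500) had 40.2 and 20.1 FPKM in the controls and 8.26 and 13.7 FPKM after treatment, a log2FC of -1.65 ± 0.52 with a DESeq2 adjusted p of 0.0416. It was -0.90 without DMSO replicate 1. Bop1 had 17.0 and 7.75 FPKM in the controls and 4.95 and 5.42 FPKM in the treated libraries, with a log2FC of -1.45 that was -0.58 without that library. Pes1 had 15.8 and 6.43 FPKM in the controls and 8.31 and 6.95 FPKM after treatment, so that DMSO replicate 2 was the lowest library and the groups overlapped. The log2FC of Pes1 was -0.74 ± 0.57 with all libraries and 0.25 without DMSO replicate 1. The ratio of Wdr12 to Pes1 FPKM was 2.54 and 3.12 in the controls and 0.994 and 1.97 after treatment, and a difference between the subunits was not tested.

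The 5 GTPases were all lower without overlap (28.3% of all genes) and all had an unadjusted edgeR p under 0.05 (10.1% of all genes, lower). Gnl3 (nucleostemin, chr14:31012433-31019131), a nucleolar GTPase abundant in stem cells, had 471 and 227 FPKM in the controls and 119.5 and 145 FPKM in the treated libraries. It was the one GTPase that DESeq2 called (adjusted p = 0.0309), with an edgeR log2FC of -1.60 ± 0.50 that was -0.78 without DMSO replicate 1. Gnl3 hosts snoRNAs in its introns and overlaps Glt8d1, and fragments of overlapping genes cannot be told apart where the counting does not use strand. Gnl3l, the relative of Gnl3, had 6.99 and 3.35 FPKM in the controls and 2.01 FPKM in both treated libraries, a log2FC of -1.56 that was -0.75 without DMSO replicate 1. Gnl3 stood 67.4 and 67.7 times above Gnl3l in the controls and 59.5 and 71.9 times after treatment, so their ratio kept within a narrow range while both were lower.

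Gtpbp4, which binds the early nucleolar particle and travels with it to the cytoplasm, differed least among the GTPases. It had 308 and 276 FPKM in the controls and 144 and 196 FPKM in the treated libraries, a log2FC of -0.93 ± 0.38. In CPM its control libraries were 807 and 609, and its log2FC without DMSO replicate 1 was -0.70. Lsg1, the cytoplasmic GTPase that acts in the release of Nmd3, had 158 and 112 FPKM in the controls and 60.3 and 70.0 FPKM in the treated libraries, with a log2FC of -1.22. Gnl2, which acts late in the nucleoplasm, had 44.2 and 33.5 FPKM in the controls and 23.3 and 18.6 FPKM after treatment, with a log2FC of -1.05.

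Mdn1 and Nvl are AAA ATPases that pull assembly factors off the particle, and Nle1 and Wdr74 are their respective substrates. Wdr74 (chr19:8735795-8740624) had 251 and 99.6 FPKM in the controls and 39.3 and 57.0 FPKM in the treated libraries. Its log2FC of -2.06 ± 0.56 was the lowest of the 48 factors, its DESeq2 adjusted p of 0.0110 was the smallest, and its log2FC without DMSO replicate 1 was -1.05. Nvl, the ATPase that releases Wdr74, had 12.6 and 14.5 FPKM in the controls and 10.9 and 16.3 FPKM after treatment. The groups of Nvl overlapped, with a log2FC of -0.13 ± 0.41.

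Mdn1, with the lowest mean FPKM of the 48 over the 4 libraries, had 4.23 and 3.25 FPKM in the controls and 1.45 and 2.23 FPKM in the treated libraries. Its log2FC was -1.19 ± 0.43, and -0.82 without DMSO replicate 1. Nle1, its substrate, had 6.25 and 5.95 FPKM in the controls and 2.65 and 1.87 FPKM after treatment. The controls of Nle1 were close in FPKM, and in CPM they were 10.7 and 8.53. Its log2FC was -1.58 with all libraries and -1.39 without DMSO replicate 1. DESeq2 gave Nle1 no adjusted p.

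Rpf2 and Rrs1 bind each other and dock the 5S ribonucleoprotein on the particle. Rpf2 (chr10:40223246-40247039) had 535 and 405 FPKM in the controls and 146 and 215 FPKM in the treated libraries. Its log2FC of -1.54 ± 0.42 had the smallest unadjusted edgeR p of the 48 factors, 0.00684, with a DESeq2 adjusted p of 0.0196. Without DMSO replicate 1 it was still -1.16. Rrs1 had 53.9 and 45.6 FPKM in the controls and 20.7 and 27.6 FPKM after treatment, a log2FC of -1.20 ± 0.39 that was -0.92 without that library. Rpf2 was 9.93 and 8.88 times as abundant as Rrs1 in the controls and 7.03 and 7.80 times after treatment. Both partners were lower by more than the gap between the control libraries.

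Las1l and Nol9 cut and phosphorylate ITS2, and Pelp1, Senp3 and Sdad1 accompany the particle at that step, Senp3 as a SUMO protease. All 5 were lower without overlap in CPM (28.3% of all genes), and 2 had an unadjusted edgeR p under 0.05 (10.1% of all genes, lower). DESeq2 called none. Sdad1 had the lowest log2FC, -1.36 ± 0.49 (-0.74 without DMSO replicate 1), with 15.4 and 8.91 FPKM in the controls and 6.41 and 4.27 FPKM in the treated libraries. Las1l had the one nearest 0, -0.72 ± 0.42, with 13.2 and 12.3 FPKM in the controls and 9.10 and 8.03 FPKM after treatment. Pelp1 had 6.29 and 2.76 FPKM in the controls and 2.76 and 1.87 FPKM in the treated libraries, so that the groups met on the FPKM scale. Its log2FC was -1.16 ± 0.63 with all libraries and -0.26 without DMSO replicate 1. Nol9 and Senp3 had log2FC of -1.12 and -0.87.

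The largest group, 16 factors of the Brix family and of the early nucleolar scaffold, held 15 lower genes, 8 of them with an unadjusted edgeR p under 0.05, and 5 that DESeq2 called. Over all genes the shares were 10.1% for that edgeR p, lower, and 5.75% for a DESeq2 call. Mybbp1a (chr11:72441327-72451770), a nucleolar protein also known as a partner of MYB, had 28.1 and 13.8 FPKM in the controls and 5.20 and 7.61 FPKM after treatment. Its log2FC of -1.90 ± 0.52 was the lowest of this group (DESeq2 adjusted p = 0.0179) and was -1.11 without DMSO replicate 1. Nip7 (chr8:107056877-107060931), which binds the precursor RNA, had 406 and 166 FPKM in the controls and 75.0 and 111 FPKM in the treated libraries. Its log2FC was -1.83 ± 0.56 (DESeq2 adjusted p = 0.0202), and -0.84 without DMSO replicate 1, so that it rested on that library more than Mybbp1a did.

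Nop16 (chr13:54584191-54590097), a nucleolar factor, had 719 and 454 FPKM in the controls and 159.5 and 293 FPKM in the treated libraries, a log2FC of -1.55 ± 0.49 with a DESeq2 adjusted p of 0.0318. Ebna1bp2 (chr4:118620799-118627776), a scaffold protein of the early particle, had 289 and 166 FPKM in the controls and 93.0 and 95.2 FPKM after treatment, a log2FC of -1.45 ± 0.45 with a DESeq2 adjusted p of 0.0345. Rrp15 (chr1:186721086-186749358) had 518 and 391 FPKM in the controls and 180 and 238 FPKM in the treated libraries, a log2FC of -1.28 ± 0.40 with a DESeq2 adjusted p of 0.0480. In all 3 both treated libraries were below both controls, and without DMSO replicate 1 the log2FC were -1.003, -0.82 and -0.90. Mybbp1a, Ebna1bp2 and Rrp15 each overlap another annotated gene, as do 19 of the 48 factors, Wdr12 among them.

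The pair with the highest mean FPKM in the same group was Rsl1d1 and Brix1. Rsl1d1, a ribosomal L1 domain protein with the highest mean FPKM of the 48, had 970 and 922 FPKM in the controls and 905 and 918 FPKM after treatment. Its log2FC was -0.20 ± 0.37, and -0.02 without DMSO replicate 1. Brix1, the founding member of the Brix family, had 1122 and 841 FPKM in the controls and 507 and 624 FPKM in the treated libraries. Its log2FC was -0.96 ± 0.42, and -0.57 without DMSO replicate 1. Rpf1, Ppan and Mak16, 2 further Brix proteins and the partner of Rpf1, had log2FC of -1.15, -1.47 and -0.84.

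Noc3l, a partner of the Noc complexes that the particle carries from the nucleolus to the nucleoplasm, was the one factor with a log2FC above 0. It had 12.9 and 19.9 FPKM in the controls and 23.1 and 17.9 FPKM in the treated libraries, with overlap and a log2FC of 0.20 ± 0.38. It was also the one factor with less CPM in DMSO replicate 1 than in DMSO replicate 2. Noc2l, the other Noc protein of the list, had 29.2 and 12.02 FPKM in the controls and 11.99 and 9.29 FPKM after treatment, a log2FC of -1.15 that was -0.18 without DMSO replicate 1.

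The paralogs Rrp1 and Rrp1b differed in how their libraries were ordered. Rrp1 had 34.1 and 24.8 FPKM in the controls and 14.2 and 18.6 FPKM after treatment, with no overlap and a log2FC of -1.01. Rrp1b had 15.1 and 4.52 FPKM in the controls and 3.25 and 6.04 FPKM in the treated libraries, so that the groups overlapped, and its log2FC of -1.29 ± 0.68 became 0.04 without DMSO replicate 1. The remaining members of the group, Nsa2 and Surf6, had log2FC of -1.31 and -0.86, both without overlap, which were -0.61 and -0.51 without that library.

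The 4 factors of late maturation and export were lower without overlap, as were 28.3% of all genes tested. Mrto4 (chr4:139347440-139352576), which holds the place of the ribosomal stalk until the last steps, had 240 and 106 FPKM in the controls and 62.0 and 62.9 FPKM in the treated libraries. Its log2FC of -1.66 ± 0.51 (DESeq2 adjusted p = 0.0320) was -0.75 without DMSO replicate 1. Rsl24d1, which holds the place of the ribosomal protein Rpl24, had 1195 and 945 FPKM in the controls and 654 and 756 FPKM after treatment. Its log2FC was -0.76 ± 0.40, and -0.42 without DMSO replicate 1. Nmd3, the export adaptor, had 814 and 511 FPKM in the controls and 328 and 420 FPKM in the treated libraries. Its log2FC was -0.999 ± 0.44, and -0.45 without DMSO replicate 1. Eif6, which keeps the subunits apart until the large one is finished, had 501 and 340 FPKM in the controls and 190 and 237 FPKM after treatment, a log2FC of -1.15. These 4 factors spanned a mean of 118 to 887 FPKM, and all of them were expressed above the median of the 48.

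Genes of the neighbouring steps were in the same direction. Of 25 tested assembly factors of the large subunit outside the 48, 24 were lower, 11 with an unadjusted edgeR p under 0.05 and 3 called by DESeq2, with a median log2FC of -1.03. All 48 assembly factors of the 40S subunit on a second list were lower, 29 with an unadjusted edgeR p under 0.05 and 8 called by DESeq2, with a median of -1.07. All 47 proteins of the large subunit itself were lower, 39 with an unadjusted edgeR p under 0.05 and 18 called by DESeq2, with a median of -1.34. Without DMSO replicate 1 these medians were -0.42, -0.56 and -0.63. DESeq2 gave an adjusted p to 23, 45 and 47 genes of these lists. Of all 13549 genes tested, 6576 were lower. Over all genes, 10.1% were lower at an unadjusted edgeR p under 0.05, and DESeq2 called 5.75% down-regulated. Ribosomal protein genes have near-identical pseudogene copies, and their levels may therefore be less certain than those of the assembly factors, which was not measured.

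By the smallest unadjusted edgeR p, the leading genes of the first list were Nol12, Cebpz and Wdr18, with log2FC of -1.40, -1.25 and -2.07, or -0.996, -0.84 and -0.82 without DMSO replicate 1. Those of the 40S list were Ddx10, a DEAD-box helicase, Tsr2, a chaperone of a 40S protein, and Heatr1, a subunit of the small-subunit processome, with log2FC of -2.12, -3.51 and -2.54, or -1.62, -1.92 and -1.62 without that library. Those of the ribosomal proteins were Rpl10a, Rpl14 and Rpl26, with log2FC of -2.23, -1.93 and -1.66, or -1.14, -1.16 and -1.11 without it. In log2 CPM centred on each gene's mean, the 48 assembly factors had medians of 1.01 and 0.13 in the control libraries and -0.68 and -0.44 in the treated ones, against -0.05, 0.07, 0.06 and 0.05 over all genes. The steps between libraries of the other ribosomal lists had the same order, and no difference between the lists was tested.

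**Figure D3:**
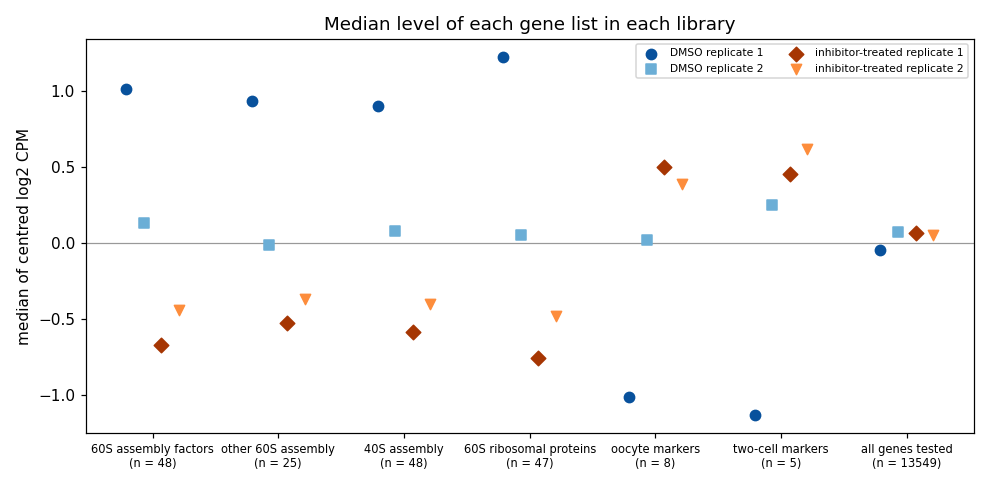
For each gene list on the x axis (number of genes tested in parentheses), the points give the median over its genes of log2 CPM centred on each gene's mean, 1 point per library. The 60S assembly factors, the other assembly lists and the 60S ribosomal proteins run from DMSO replicate 1 at the top to inhibitor-treated replicate 1 at the bottom, the oocyte and two-cell markers have DMSO replicate 1 lowest, and the median of all genes tested stays between -0.05 and 0.07.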

How the data were processed

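Polyadenylated RNA of 2 DMSO and 2 10074-G5-treated libraries was compared, grouped by the sample labels. The authors amplified cDNA with a SMART-Seq kit, aligned the reads to mm10 with STAR (2.7.10) and quantified genes with RSEM (1.3.3). The expected count deposited by the authors is an unnormalized estimate of fragments per gene. Levels are the deposited FPKM, which corrects for transcript length and library size. The TPM deposited by the authors was not tested, and the deposited effective lengths served as offsets in DESeq2.

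Expected counts were rounded and filtered with filterByExpr (minimum count 10, minimum total count 15), which kept 13549 genes. They were scaled by TMM and tested with edgeR's quasi-likelihood test (edgeR 4.0.16, R 4.3.3) with Benjamini-Hochberg adjustment over all genes. DESeq2 1.42.0 and limma 3.58.1, the latter on log2(FPKM + 1) and log2(FPKM + 0.1) at a mean FPKM of at least 1, other scalings and filters, the replicate number as a block and leaving out each library were alternatives. DESeq2 used a threshold of 0.05 in its independent filtering. The steps were tested on simulated data.

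The labels do not say what the replicate number marks, and the main fit did not pair the samples by it. The correlation of deviations between same-numbered libraries was -0.03. With 2 libraries per group this value cannot decide whether same-numbered libraries shared a fertilization or a batch. The labels do not say that replicates were separate fertilizations, so p-values measure the spread between these libraries only. PCR copies were counted like molecules. The common biological coefficient of variation was 0.557.

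The members and the other lists were chosen with earlier results of these data known. Named with full values were, in each role, the factors with the largest and smallest absolute log2FC, the 10 with the smallest p, those called by DESeq2, and the 5 highest and 3 lowest in mean FPKM. From each other list the 3 genes with the smallest p were named. Values of other factors were added for completeness. Promoter sequences are RefSeq's, gene positions are RefSeq's for GRCm38.p6, the assembly of mm10.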

Additional observations from a re-analysis of the deposited data

How the results depend on the processing

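Over 14 alternative fits, 668 of 672 log2FC values of the 48 factors kept their direction. The exceptions were Pes1 and Rrp1b, at 0.25 and 0.036 without DMSO replicate 1 (-1.32 and -1.97 without DMSO replicate 2), and Nvl, at 0.012 with library totals and 0.16 without inhibitor-treated replicate 1 (-0.43 without inhibitor-treated replicate 2). The TMM factor was 0.873 for DMSO replicate 1 and 1.04 to 1.06 for the other libraries. Library totals in place of TMM factors moved the median log2FC of all genes from 0.04 to 0.17. They moved that of the 48 factors from -1.16 to -0.98 and left 46 factors lower. The count of factors called down-regulated was 0 with edgeR, 12 in each of 3 DESeq2 fits and 11 with edgeR and no filter on low counts (2.63% of the genes then tested), and the cause was not tested. It ranged from 0 to 42 when 1 library was left out, with 42 without DMSO replicate 2. In those fits 14721 and 14669 genes were tested without DMSO replicates 1 and 2, and the lone library of a group was assumed to vary like the other group. In limma on log2(FPKM + 1) and log2(FPKM + 0.1), 0 were called, and the median log2FC of the factors was -0.89 and -0.95. No factor was called up-regulated in any fit with all 4 libraries. When 1 library was left out, the median log2FC ranged from -1.56 to -0.67 for the 48 factors, from -1.41 to -0.42 for the other 60S assembly list, from -1.38 to -0.56 for the 40S list and from -1.83 to -0.63 for the 60S ribosomal proteins, in each case nearest 0 without DMSO replicate 1. With the replicate block the count of calls was 0 and the median was -1.09.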
